A study of Mus musculus with 27 samples.

Results

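The 41 genes described here encode the proteins that copy DNA in S phase. They were chosen by symbol from the probe annotation, and all 41 were measured among 19937 genes with a probe set of their own. They fall into 9 roles: the origin recognition complex (Orc1 to Orc6), licensing (Cdc6, Cdt1), the helicase core (Mcm2 to Mcm7), helicase activation (Cdc45, Mcm10, Gins1 to Gins4), polymerases and primase (Pola1, Pola2, Prim1, Prim2, Pold1, Pole), the clamp and its loader (Pcna, Rfc1 to Rfc5), single-strand binding (Rpa1 to Rpa3), lagging-strand maturation (Fen1, Lig1) and nucleotide supply (Rrm1, Rrm2, Tyms, Tk1). Levels are log2 units per probe set, so 1 unit is a doubling of the signal. Single genes are not compared with each other by level, but some levels are placed against the median or 25th percentile of all genes.

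Mouse RNA was hybridised to 27 Affymetrix arrays, 1 per sample. The series set 10 immortalized neural stem cell lines against 2 cultures of normal neural stem cells (NSCs), and 12 tumors grown from 4 lines against 3 pieces of subcutaneous tissue (SubQ). Lines 3, 28, 31, 59, 95 and 116 were labelled p53 mutant, and lines 119, 120, 123 and 331 were labelled WT, as were the NSCs and SubQ. Each of the 4 tumor lines gave 3 tumors: lines 31 and 59 were labelled p53 mutant and lines 1 and 123 WT, and line 1 was measured only as tumors. All 27 samples carried the host strain label CB17/ICR-Prkdcscid/IcrCrl, an immunodeficient (SCID) mouse. How the lines were immortalized, and whether a sample pooled several animals, were not stated in the labels used here. Each line was 1 culture on 1 array, so a p-value here reflects spread among these samples only, which may be technical in part. In such bulk RNA, fewer cycling cells and less transcript per cell cannot be told apart.

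Replication starts at origins bound by the origin recognition complex, where CDC6 and CDT1 load the MCM2-7 helicase in G1, a step called licensing. In S phase CDC45, the GINS complex and MCM10 activate the helicase, primase and the polymerases copy both strands, PCNA holds the polymerases on DNA after RFC loads it, RPA coats the single strands, and FEN1 and LIG1 finish the lagging strand. Ribonucleotide reductase (RRM1, RRM2), thymidylate synthase and thymidine kinase supply the nucleotides. Many of these genes are transcribed under control of E2F factors as cells enter S phase, and high levels of them are commonly used as a sign of proliferation.

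Cell and tissue arrays were on separate scales. The median gene lay between 7.18 and 7.28 on cell arrays, between 5.66 and 5.75 on tumor arrays and between 5.82 and 5.87 on SubQ arrays. The SubQ arrays stood apart: the SD over genes was 1.63 to 1.79 on tumor arrays, against 0.87, 0.88 and 1.02 on SubQ arrays, and the level of Actb was 11.92 to 12.63 in tumors, against 8.35, 8.53 and 9.83 in SubQ. Among the genes of replication, 41 of 41 had a group mean above the median gene in the lines, the NSCs and the pooled tumors. In SubQ 20 of 41 did. By tumor line it was 41 in lines 1 and 59, 40 in line 123 and 37 in line 31. Of 9 neural stem cell markers, 4 fell in the lines relative to the NSCs (Fabp7 by 6.88, Prom1 by 1.95, Nr2e1 by 1.87, Msi1 by 1.14 log2 units), and 2 of 7 fibroblast markers rose (Col1a2 by 3.14, Col1a1 by 1.73).

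Since E2F sites are a known feature of these genes, promoter windows from 250 bases before to 50 bases after the start site were read from RefSeq (GRCm38.p6). A window was found for 34 of the 41 genes, and none was used here for Gins1, Gins2, Gins4, Mcm4, Pole, Prim2 and Rfc2. An E2F core, searched on either strand as the letters TTCGCG, as the form with TTGGCG and as the form with TTCCCG, was in a window of 26 of the 34 genes (76.5%), against 23.5% of all 27025 genes and 28.7% of 17491 protein-coding genes. Of the 34 genes, 16 had 2 or more matches, as did 5.28% of all genes. Matches on either strand were counted singly, so an overlapping pair, as at -15 and -11 in Prim1, counts as 2. All genes with a window in the licensing, polymerase, RPA and maturation roles held a core, as did 4 of 6 ORC genes, 4 of 5 MCM2-7 genes, 4 of 5 clamp and loader genes and 2 of 3 activation genes. In nucleotide supply 1 of 4 did: Rrm1 held a core, while these letters were not in the windows of Rrm2, Tk1 and Tyms. The NF-Y box CCAAT, either strand, was in 22 of 34 genes (64.7%), against 41.1% of all genes, and the CHR element TTTGAA in 4 (11.8%), against 20.2%. Of 61 E2F core matches, 6 overlapped a CCAAT box. The windows of the replication genes had a median GC content of 60.0%, against 52.7% for all windows. A match of letters is a description, not a binding site. The 6 windows below include the genes that moved between lines and NSCs and had a window (Cdt1, Tyms, Rpa1, Rrm2). The other 2 are for genes with a large change in the tumors (Mcm6, Prim1). Pcna and Rrm1 changed more in the tumors, had 1 match each and are not shown. Capitals mark E2F core matches. Positions on GRCm38.p6 are chr8:122567765-122568064 on the plus strand for Cdt1, chr5:30073576-30073875 on the minus strand for Tyms, chr11:75348334-75348633 on the minus strand for Rpa1, chr12:24708004-24708303 on the plus strand for Rrm2, chr1:128359656-128359955 on the minus strand for Mcm6 and chr10:128014965-128015264 on the plus strand for Prim1.
Cdt1: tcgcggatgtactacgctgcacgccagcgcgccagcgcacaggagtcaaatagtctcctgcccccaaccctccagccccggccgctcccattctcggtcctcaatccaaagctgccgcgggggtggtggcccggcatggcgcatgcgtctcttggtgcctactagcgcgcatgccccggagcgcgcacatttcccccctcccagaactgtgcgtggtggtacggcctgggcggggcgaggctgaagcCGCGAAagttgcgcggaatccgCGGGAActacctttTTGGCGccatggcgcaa
Tyms: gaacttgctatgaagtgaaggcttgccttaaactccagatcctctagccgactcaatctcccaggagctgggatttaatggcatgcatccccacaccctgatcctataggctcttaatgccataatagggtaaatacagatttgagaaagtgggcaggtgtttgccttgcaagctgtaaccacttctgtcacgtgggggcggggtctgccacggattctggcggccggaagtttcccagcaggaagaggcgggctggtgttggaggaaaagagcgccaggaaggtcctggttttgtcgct
Rpa1: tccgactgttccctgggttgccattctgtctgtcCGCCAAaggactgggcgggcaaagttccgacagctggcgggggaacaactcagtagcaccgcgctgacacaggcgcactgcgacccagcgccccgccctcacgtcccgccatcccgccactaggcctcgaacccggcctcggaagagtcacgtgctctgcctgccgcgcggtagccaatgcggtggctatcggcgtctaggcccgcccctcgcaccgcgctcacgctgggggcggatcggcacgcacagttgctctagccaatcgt
Rrm2: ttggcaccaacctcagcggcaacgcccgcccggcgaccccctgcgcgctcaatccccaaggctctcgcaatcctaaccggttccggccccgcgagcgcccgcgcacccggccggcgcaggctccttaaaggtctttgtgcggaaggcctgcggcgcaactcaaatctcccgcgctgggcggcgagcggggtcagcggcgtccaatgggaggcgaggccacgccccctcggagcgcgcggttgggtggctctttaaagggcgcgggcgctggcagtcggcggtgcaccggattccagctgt
Mcm6: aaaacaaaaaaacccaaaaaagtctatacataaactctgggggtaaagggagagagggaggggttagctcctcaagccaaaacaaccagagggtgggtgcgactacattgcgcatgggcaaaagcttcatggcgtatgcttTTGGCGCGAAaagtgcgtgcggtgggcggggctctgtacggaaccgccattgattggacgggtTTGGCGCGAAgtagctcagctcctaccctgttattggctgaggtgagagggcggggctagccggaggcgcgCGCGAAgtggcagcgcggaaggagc
Prim1: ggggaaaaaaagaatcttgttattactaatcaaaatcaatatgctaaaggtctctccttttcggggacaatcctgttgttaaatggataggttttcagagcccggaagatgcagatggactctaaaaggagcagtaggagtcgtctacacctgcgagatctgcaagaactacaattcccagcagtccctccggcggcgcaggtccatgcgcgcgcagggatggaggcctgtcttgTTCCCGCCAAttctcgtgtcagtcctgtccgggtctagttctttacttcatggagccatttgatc
Mcm6 had 5 matches, some of which overlap (-109 with -105, and -46 with -42), and Cdt1 had 3. Rrm2 and Tyms, which moved in opposite directions in the lines, had none.

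Immortalized lines were first set against the normal NSCs. In the 10 lines 4 of the 41 genes rose, namely Gins4, Cdt1, Tyms and Rpa1, and 1 fell, Rrm2 (limma, adjusted p under 0.05 over all genes). Among all genes 6.79% rose and 8.22% fell, so the share of replication genes that changed, 5 of 41, was close to the 15% of all genes called in either direction. The median change of the 41 was 0.15 log2 units, against -0.005 for all genes, and it was 0.30 without the first NSC culture and 0.05 without the second. Fitted changes, called or not, were above 0 for 29 of the 41, against 48.9% of all genes. Both NSC cultures enter every value here: without the first NSC culture 1 replication gene rose (Gins4) and 0 fell, and without the second 0 rose and 0 fell. After quantile normalization, and likewise in a fit of all 27 arrays, Gins4 and Cdt1 rose and Rrm2 fell, while Tyms and Rpa1 did not pass the test.

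In the licensing pair, Cdt1, which brings the MCM2-7 helicase to origins, had a lowest, median and highest level of 7.64, 8.01 and 8.22 in the 10 lines, against 7.48 and 7.43 in the 2 NSC cultures. Every line was above both NSCs. The change was 0.51 ± 0.13 log2 units (SE, adjusted p = 0.021), a 1.42-fold difference. Cdc6, its partner in loading, lay at 7.71, 8.39 and 8.67 in the lines, against 8.50 and 8.35 in the NSCs, with line 116 lowest. Its groups overlapped and the change was -0.09 ± 0.20 (adjusted p = 0.85).

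Gins4 encodes SLD5, a subunit of the GINS complex, and had the smallest adjusted p of the 41 genes. It lay at 10.21, 10.36 and 10.67 in the lines (lowest, median and highest), against 9.86 and 9.71 in the NSCs. All 10 lines exceeded both NSCs. The means were 10.39 ± 0.13 in the lines and 9.79 ± 0.11 in the NSCs (SD, n = 10 and 2), a change of 0.60 ± 0.11 (adjusted p = 0.0016, 1.52-fold). The other 5 genes of helicase activation did not pass the test: the fitted change was 0.43 for Gins3 (adjusted p = 0.14), 0.26 for Gins1, 0.05 for Gins2, -0.004 for Mcm10 and -0.07 for Cdc45, which joins GINS in the active helicase.

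None of the 6 helicase core genes passed the test, and their fitted changes lay between 0.10 for Mcm4 and 0.22 for Mcm5, with a median of 0.17. Mcm2 lay at 9.27, 9.75 and 9.97 in the lines, against 9.61 and 9.38 in the NSCs. Mcm6 lay at 10.06, 10.57 and 10.91 in the lines, against 10.41 and 10.25 in the NSCs. For both subunits the NSC values fell inside the range of the lines, with changes of 0.18 ± 0.17 (adjusted p = 0.58) for Mcm2 and 0.22 ± 0.17 (adjusted p = 0.51) for Mcm6.

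The ORC genes likewise held no call, with a median change of 0.34 over the 6. Orc1, the cell-cycle regulated largest subunit, lay at 7.52, 8.06 and 8.64 in the lines, against 7.48 and 7.45 in the NSCs. All lines were above the NSCs, line 119 only narrowly, and the lines spread widely. The change of 0.61 ± 0.26 had an adjusted p of 0.15. Orc4 was also above both NSCs in every line (0.41 ± 0.24, adjusted p = 0.33), but line 95, at 8.418, nearly tied with the first NSC culture, at 8.413. Orc6 had a fitted change of 0.39 ± 0.15 (adjusted p = 0.11). In all, 5 of the 41 genes were higher in every line than in both NSCs, against 10.1% of all genes, and 1 was lower, against 11.1%.

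Rpa1, the large subunit of the single-strand binding protein RPA, lay at 9.02, 9.47 and 9.82 in the lines, against 9.08 and 8.77 in the NSCs. Line 120 was below the first NSC culture, and the other 9 lines were above both. The change was 0.51 ± 0.16 (adjusted p = 0.045, 1.43-fold). It did not pass the test without either NSC culture or without any one of lines 3, 28, 31, 59, 95, 123 and 331. The other RPA subunits had fitted changes of -0.04 (Rpa2) and 0.01 (Rpa3), neither past the test. Among the polymerases and primase no gene passed it: Pole, the catalytic subunit of the leading-strand polymerase, had a fitted change of 0.55 ± 0.20 (adjusted p = 0.085), Pold1 of -0.21, Pola1 of 0.30 and Prim1 of 0.24.

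The nucleotide supply genes moved apart. Rrm2, the small subunit of ribonucleotide reductase whose level rises in S phase, lay at 9.35, 10.07 and 10.39 in the lines, against 10.98 and 10.87 in the NSCs, and every line was below both NSCs. It fell by 0.97 ± 0.23 log2 units in the lines (SE, adjusted p = 0.01), with means of 9.95 ± 0.34 in lines and 10.92 ± 0.08 in NSCs (SD, n = 10 and 2). Its partner Rrm1 had a fitted change of -0.09 ± 0.23 (adjusted p = 0.88). Tyms, which makes thymidylate, lay at 9.31, 9.66 and 9.90 in the lines, against 9.14 and 9.14 in the NSCs. Every line was above both NSCs, by 0.48 ± 0.14 (adjusted p = 0.03, 1.39-fold). Tk1, the thymidine salvage kinase, lay at 8.84, 9.59 and 9.84 in the lines, against 9.36 and 9.39 in the NSCs, which fell inside the range of the lines (0.14 ± 0.20, adjusted p = 0.76).

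Pcna, the sliding clamp, lay at 12.95, 13.26 and 13.43 in the lines, against 13.50 and 13.42 in the NSCs. Line 3 alone was above the second NSC culture, and the change was -0.22 ± 0.11 (adjusted p = 0.26). Fitted changes were -0.41 ± 0.18 (adjusted p = 0.17) for the loader subunit Rfc4, -0.21 for the ligase Lig1 and 0.07 for the nuclease Fen1, none past the test. Pcna, Tk1 and Rpa3 each have another probe set, and the ones used here have the higher mean level. For Pcna and Tk1, the numeric neighbours of the one used mostly belong to another chromosome than the gene. They lie on chromosome 19 for Pcna, a gene on chromosome 2, and on chromosome 8 for Tk1, a gene on chromosome 11. The identity of these 2 is therefore less sure than for the other genes. With the other probe set, the fitted change in the lines was -0.17 for Pcna, -0.05 for Tk1 and -0.06 for Rpa3, none past the test.

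**Figure D1:**
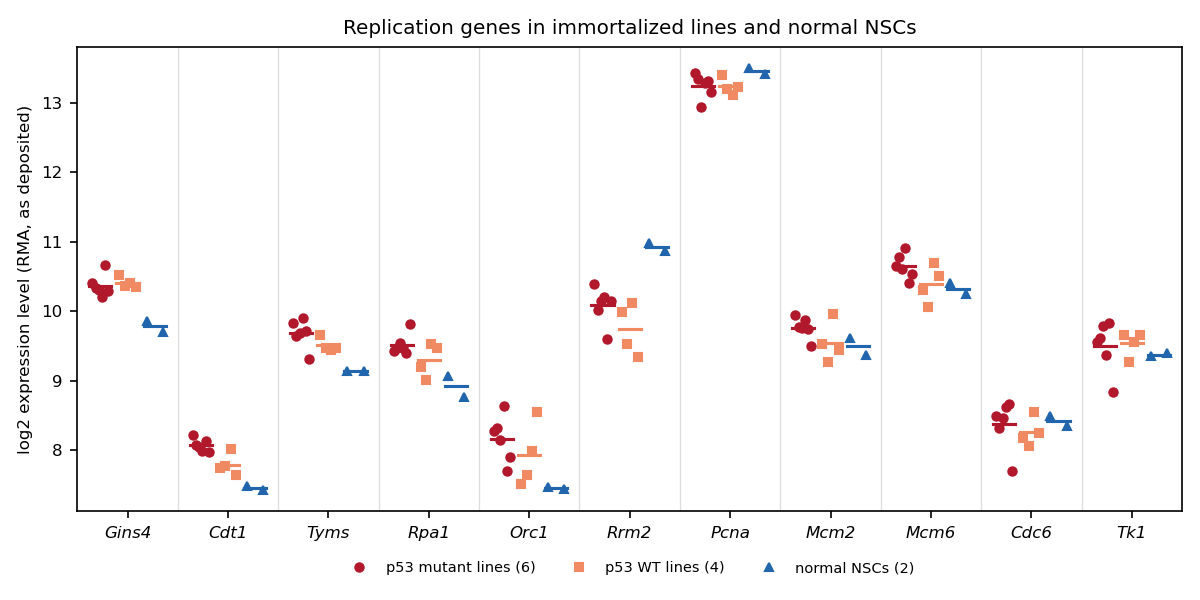
Level (log2 units) of 11 replication genes on each of 12 cell arrays. Red circles are the 6 p53 mutant lines, orange squares the 4 p53 WT lines, blue triangles the 2 NSC cultures, and bars the group means; all lines are above both NSCs for Gins4, Cdt1, Tyms and Orc1 and below them for Rrm2.

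The comparison was also made for each genotype against the same 2 NSC cultures, which both therefore share. In the p53 mutant lines alone the called genes were Cdt1 (0.62), Rpa1 (0.60), Gins4 (0.58) and Tyms (0.54), all higher, and Rrm2 (-0.84), lower. In the p53 WT lines alone Gins4 (0.63) was higher, and Rrm2 (-1.18) and Rfc4 (-0.54) were lower. Cdt1 (0.34), Rpa1 (0.38) and Tyms (0.37) had changes above 0 there too, and Rfc4 was below 0 in the mutant lines (-0.32), none called. Of all 19937 genes, 1352 rose and 1732 fell in the mutant lines, and 1158 rose and 1232 fell in the WT lines. The lists around the 41 genes stand beside 6.79% of all genes higher and 8.22% lower in the 10 lines. The 21 further replication genes held 1 call, Donson lower by 0.52 log2 units. Of 6 alternative clamp loader genes 2 rose (Chtf8 by 0.49, Chtf18 by 0.45), and of 10 replication checkpoint genes 1 rose (Rad9a by 1.00). The E2F and RB list had 2 calls of 13, E2f4 higher by 0.76 and E2f6 lower by 1.34, the replication-coupled chromatin list 1 of 7 (Nasp lower by 0.60), the further nucleotide genes 0 of 9 and the mitosis markers 0 of 14, with a median change of 0.02 for the last.

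Genotype was compared next, p53 mutant against p53 WT lines. The p53 protein halts the cell cycle after DNA damage, in part by keeping E2F targets repressed. None of the 41 genes passed the test, and 4 of 19937 genes did in all (0.0201%). At an unadjusted p under 0.05 there were 4 of the 41, Mcm3, Cdt1, Orc2 and Prim2, against 8.53% of all genes. Fitted changes were above 0 for 36 of the 41, against 50.4% of all genes, and their median was 0.19, against 0.001 for all genes. The 5 genes below 0 were Gins4, Orc4, Pola1, Rpa3 and Tk1. The 20 positive changes of the 21 further replication genes and the 11 of 14 mitosis markers ran the same way, with 0 calls among those mitosis markers.

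Cdt1 lay at 7.98, 8.06 and 8.22 in the 6 p53 mutant lines (lowest, median and highest), against 7.75, 7.77, 8.02 and 7.64 in the 4 WT lines. Line 123 was the only WT line inside the mutant range, and the change was 0.28 ± 0.09 (adjusted p = 0.42). The helicase subunit Mcm3 had the largest fitted change, 0.54 ± 0.17 (adjusted p = 0.43), with values of 9.002, 9.71 and 10.08 in mutant lines, against 9.16, 8.97, 9.19 and 9.17 in WT lines. Line 116 was below 3 of the 4 WT lines, and the other 5 mutant lines were above all WT lines.

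Mcm2 lay at 9.50, 9.76 and 9.94 in mutant lines, against 9.53, 9.27, 9.97 and 9.44 in WT lines, with line 123 above all mutant lines. Mcm6 lay at 10.41, 10.63 and 10.91 in mutant lines, against 10.30, 10.06, 10.70 and 10.50 in WT lines, and the groups overlapped. Orc1 lay at 7.71, 8.21 and 8.64 in mutant lines, against 7.52, 7.65, 7.99 and 8.56 in WT lines, where line 331 reached the upper mutant values. Changes were 0.21 ± 0.13 for Mcm2, 0.26 ± 0.13 for Mcm6 and 0.24 ± 0.22 for Orc1, with adjusted p of 0.72, 0.66 and 0.83. Both nucleotide genes that moved against the NSCs also overlapped between genotypes. Rrm2 lay at 9.61, 10.15 and 10.39 in mutant lines, against 9.99, 9.54, 10.12 and 9.35 in WT lines (0.34 ± 0.18, adjusted p = 0.66). Tyms lay at 9.31, 9.70 and 9.90 in mutant lines, against 9.67, 9.47, 9.44 and 9.47 in WT lines (0.17 ± 0.11, adjusted p = 0.74). In neither did the genotypes separate.

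The clamp Pcna had a fitted change of 0.01 ± 0.10 (adjusted p = 0.99), with 12.95, 13.30 and 13.43 in mutant lines, against 13.41, 13.20, 13.12 and 13.23 in WT lines. Cdc6 lay at 7.71, 8.48 and 8.67 in mutant lines, against 8.18, 8.06, 8.55 and 8.25 in WT lines, and Tk1 at 8.84, 9.59 and 9.84 in mutant lines, against 9.67, 9.26, 9.56 and 9.66 in WT lines. Line 116 was lowest for both of these. Their changes were 0.12 ± 0.18 and -0.03 ± 0.18, and neither passed the test. None of the 41 genes separated the genotypes, against 0.667% of all genes separate in the higher and 1.02% in the lower direction.

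Lines differed among themselves within a genotype. Averaged over the 41 genes, the mutant lines 3, 28, 31, 59, 95 and 116 lay at 9.72, 9.64, 9.72, 9.69, 9.59 and 9.25, the WT lines 119, 120, 123 and 331 at 9.39, 9.31, 9.53 and 9.50, and the NSCs at 9.48 and 9.32. Line 116 was lowest of the 10 lines in 14 of the 41 genes, against 11.5% of all genes, line 120 in 8 (5.77%), and line 3 was highest in 8 (5.17%). The mean of the mitosis markers was also lowest in line 116, at 9.90, against 10.26 to 10.62 in the other mutant lines. Leaving out 1 line at a time, the median change of the 41 genes between genotypes ran from 0.14 without line 120 to 0.25 without line 116.

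**Figure D2:**
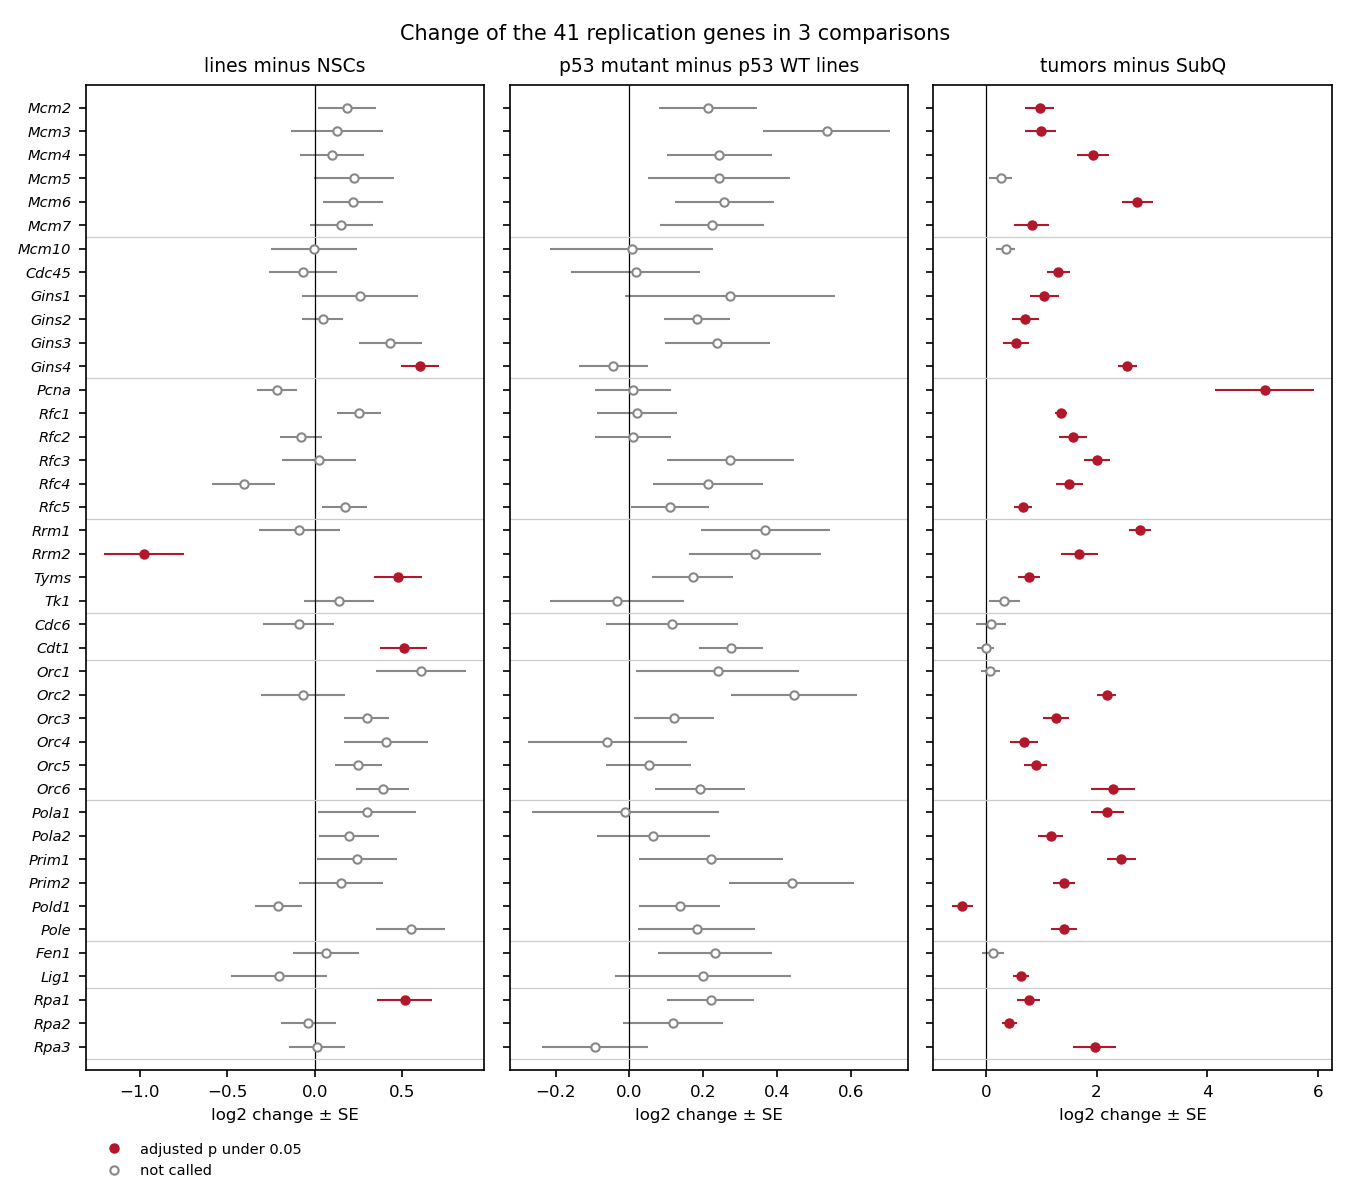
Fitted log2 change with its SE (horizontal axes) of the 41 genes, ordered by role, for lines over NSCs, p53 mutant over p53 WT lines and tumors over SubQ. Filled red points passed the test: 5 genes in the first panel, 0 in the second and 34 in the third, where Rfc5, Orc3, Gins2, Gins3 and Tyms turned below 0 after quantile normalization.

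The tumors were then compared with SubQ. In the 12 tumors 33 of the 41 genes rose and 1, Pold1, fell, against 30.7% of all genes higher and 45.8% lower. Every one of the 6 clamp and loader genes and the 3 RPA genes rose, as did 5 of 6 helicase core genes, 5 of 6 activation genes, 5 of 6 ORC genes, 5 of 6 polymerase and primase genes, 3 of 4 nucleotide supply genes and 1 of 2 maturation genes. Neither licensing gene passed the test. The 12 tumors came from 4 lines but were fitted as separate samples, so the SE and p-values here leave the shared line out. With the line as a random block, 32 rose and 0 fell. With the arrays quantile normalized, which moved the median change of all genes to -0.11, 25 rose and 2 fell, and the fitted change turned below 0 for Rfc5, Orc3, Gins2, Gins3, Tyms, Tk1 and Cdc6. As deposited, the median change was 1.06, against -0.28 for all genes, and 40 of 41 fitted changes were above 0, against 41.9%. A level filter kept genes above the median of the mean level over the 15 arrays, 12 of them tumors. Genes high in tumors pass this filter more readily, so the shares after it are partly set by it. Among the genes kept 59.3% rose, with a median change of 0.81. Of the 40 replication genes among them 32 rose, with a median of 1.11. For 23 of the 41 all tumors were above all SubQ samples, against 21.9% of all genes.

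Markers of the tissue differed between the groups as well. All 9 macrophage genes rose in tumors, with an array mean of 8.22 to 9.31 in tumors and 6.11 to 6.51 in SubQ. Skeletal muscle genes fell in 7 of 9 (5.48 to 7.97 in tumors, 7.86 to 8.55 in SubQ) and adipocyte genes in 6 of 6. Keratinocyte genes fell in 4 of 7 and lymphocyte genes in 7 of 7, while 5 of 7 fibroblast and 3 of 7 endothelial genes rose. Among all genes, 45.8% fell and 30.7% rose. The lymphocyte genes were low in both groups. They averaged 4.76 in tumors and 5.77 in SubQ, where the 25th percentile of all genes was 4.75 and 5.38. The 41 genes averaged 6.88 to 7.49 on tumor arrays and 5.79, 5.99 and 6.11 on SubQ arrays. The share of these cell types in the results on replication genes was not tested.

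The clamp Pcna had the largest change. Its lowest, median and highest tumor levels were 10.68, 11.65 and 12.14, against 2.11, 9.14 and 8.40 in SubQ, and all tumors were above SubQ. The first SubQ sample was far below the other two. The change was 5.04 ± 0.89 (SE, adjusted p = 6.7e-05), and 2.81 without that sample. The other Pcna probe set changed by 3.34 ± 0.28 (adjusted p = 2e-08). The loader genes Rfc3, Rfc2, Rfc4, Rfc1 and Rfc5 rose by 2.00, 1.58, 1.51, 1.37 and 0.68, and for each of them tumors and SubQ did not overlap, but Rfc5 had a change of -0.649 (adjusted p = 0.033), lower in tumors, after quantile normalization, and 0.437 without the third SubQ sample.

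The nucleotide supply genes held the second largest change. Rrm1, the large subunit of ribonucleotide reductase, lay at 8.07, 8.61 and 8.82 in tumors, against 5.09, 5.85 and 6.23 in SubQ. The groups were far apart (2.78 ± 0.20, adjusted p = 3.7e-09, 6.87-fold). Rrm2 lay at 6.39, 7.69 and 8.13 in tumors, against 5.89, 5.54 and 5.77 in SubQ, again without overlap (1.69 ± 0.34, adjusted p = 0.00022). Tyms lay at 6.99, 7.47 and 7.79 in tumors, against 6.11, 6.75 and 7.06 in SubQ. Tumors reached below the highest SubQ sample, and the change was 0.78 ± 0.19 (adjusted p = 0.0013), or -0.039 after quantile normalization and 0.514 without the first SubQ sample. Tk1 lay at 6.42, 7.05 and 7.48 in tumors, against 6.25, 6.10 and 7.79 in SubQ, where the third sample was above every tumor, and it did not pass the test (0.34 ± 0.28, adjusted p = 0.27). Without that sample Tk1 was called higher, at 0.875. The other Tk1 probe set, with neighbours on chromosome 11 like the gene, did not show this high sample. It lay at 6.34, 7.07 and 5.78 in SubQ, and its change was 0.15 ± 0.22 (adjusted p = 0.53).

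Mcm6 led the helicase core, at 7.63, 8.49 and 8.94 in tumors, against 5.67, 5.04 and 6.45 in SubQ. Its groups did not overlap (2.74 ± 0.28, adjusted p = 1.6e-07, 6.67-fold). Mcm4 followed at 6.98, 7.39 and 8.42 in tumors, against 5.68, 5.70 and 5.74 in SubQ (1.94 ± 0.29, adjusted p = 1.1e-05), also without overlap. Mcm2 lay at 6.30, 6.85 and 7.66 in tumors, against 6.45, 5.71 and 5.69 in SubQ. The lowest tumor was below the first SubQ sample, with a change of 0.98 ± 0.26 (adjusted p = 0.0027). Mcm3 rose by 0.99 and Mcm7 by 0.83, but each depended on 1 SubQ sample: Mcm3 had 0.566 without the first and Mcm7 0.329 without the second, neither past the test, and Mcm7 also lost its call after quantile normalization. The remaining subunit, Mcm5, had a fitted change of 0.27 ± 0.21 (adjusted p = 0.26) and did not pass the test.

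Of the activation genes, Gins4 had the smallest adjusted p among the 41. It lay at 8.07, 8.47 and 8.74 in tumors, against 5.49, 6.40 and 5.73 in SubQ. Tumors and SubQ did not overlap (2.56 ± 0.18, adjusted p = 2.5e-09, 5.88-fold). Cdc45 rose by 1.31, Gins1 by 1.06, Gins2 by 0.71 and Gins3 by 0.55, the last 2 with values of -0.155 and -0.077 after quantile normalization. Gins3 did not pass the test with the level filter, with the replicate number or the line as a block, without the first or the third SubQ sample (0.315 without the third), or without any one of 9 tumors (each of lines 1 and 59, the first and the third of line 31, the first of line 123). Gins2 did not pass it without the third SubQ sample (0.561). Mcm10 had a fitted change of 0.36 ± 0.17 (adjusted p = 0.069).

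Prim1, the catalytic subunit of primase, lay at 7.62, 8.35 and 9.11 in tumors, against 6.07, 5.72 and 6.05 in SubQ. All tumors were above all SubQ samples (2.45 ± 0.26, adjusted p = 2.7e-07, 5.44-fold). Its partner Prim2 rose by 1.41, the polymerase alpha subunits Pola1 and Pola2 by 2.20 and 1.17, and Pole by 1.42. Pold1, the catalytic subunit of polymerase delta, fell by 0.43 ± 0.19 (adjusted p = 0.0496), close to the threshold, and had -0.195 without the first SubQ sample. That call was lost when all arrays were centred on their medians, when the line entered as a random block, without the first or the second SubQ sample, and without any one of 8 tumors (the first and the third of line 1, the second and the third of line 31, the first and the second of lines 59 and 123). Of the ligase Lig1 and the nuclease Fen1, Lig1 rose by 0.63, and Fen1 had a fitted change of 0.13 ± 0.19 (adjusted p = 0.54). In RPA, Rpa3 rose by 1.96, Rpa1 by 0.78 and Rpa2 by 0.43. Rpa2 was not called after quantile normalization or without the second SubQ sample (0.329). The other Rpa3 probe set, with neighbours mostly on chromosome 1 and not 6, changed by only 0.71 ± 0.27 (adjusted p = 0.026). There the second line 31 tumor, at 5.69, was below all SubQ samples.

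The origin genes divided. Orc6 lay at 7.88, 8.80 and 10.47 in tumors, the highest in a line 31 tumor, against 6.21, 7.81 and 5.76 in SubQ. The lowest tumor was just above the highest SubQ sample (2.29 ± 0.40, adjusted p = 5.9e-05). Orc2, Orc3, Orc5 and Orc4 rose by 2.18, 1.27, 0.91 and 0.69, and Orc3 had a value of -0.177 after quantile normalization. Orc4 did not pass the test without the first SubQ sample (0.322) or after quantile normalization (0.04). Orc1 lay at 5.17, 5.83 and 6.27 in tumors, against 5.77, 5.79 and 5.60 in SubQ, inside the tumor range (0.08 ± 0.17, adjusted p = 0.68). The licensing genes were alike: Cdc6 lay at 5.40, 6.11 and 6.47 in tumors, against 6.92, 5.84 and 5.10 in SubQ. Cdt1 lay at 5.52, 5.90 and 6.14 in tumors, against 5.67, 5.76 and 6.11 in SubQ. Both overlapped, with changes of 0.10 ± 0.27 and 0.00 ± 0.16 and adjusted p of 0.75 and 1. Cdc6 was called higher, at 0.583, without the first SubQ sample, and had -0.327, not called, without the third.

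**Figure D3:**
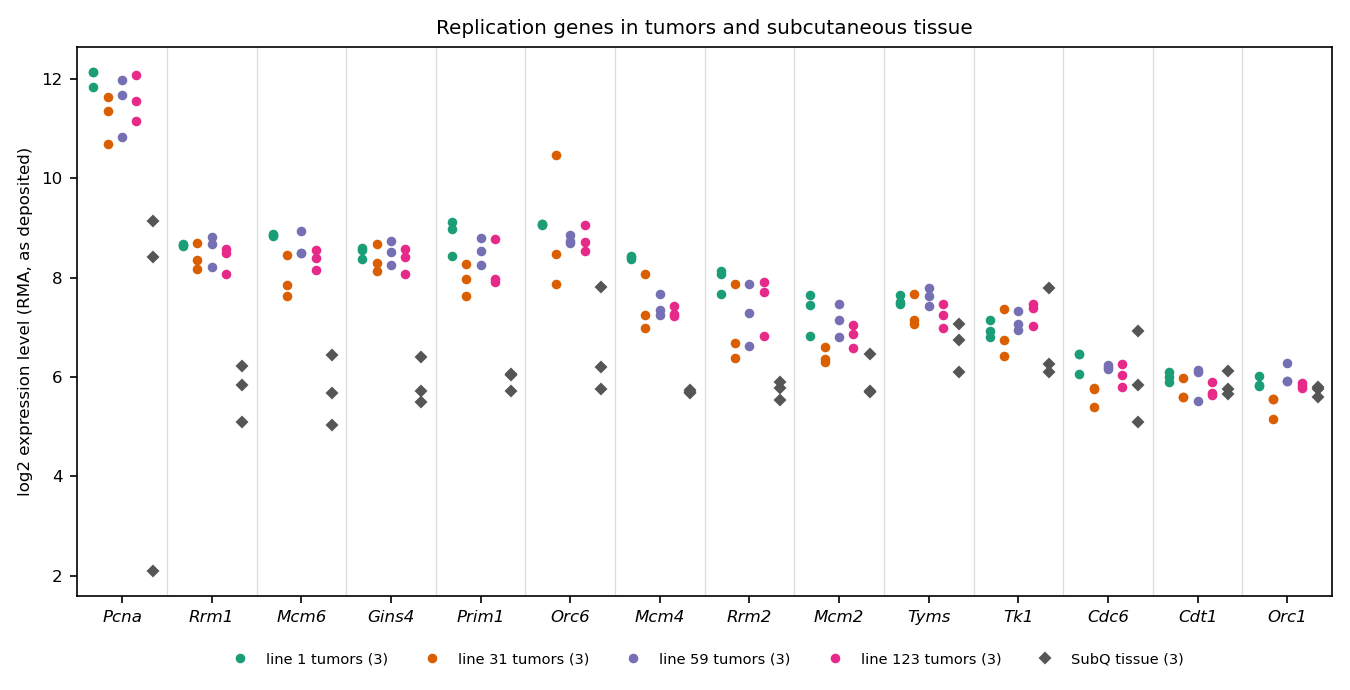
Level (log2 units) of 14 replication genes on each of 15 tissue arrays, with tumors marked by line (1, 31, 59 and 123) and the 3 SubQ samples as diamonds. Tumors lie above SubQ for Pcna, Rrm1, Mcm6, Gins4, Prim1, Orc6, Mcm4 and Rrm2, and overlap with SubQ for Cdc6, Cdt1 and Orc1.

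The counts of the other lists in the tumors stand beside 30.7% of all genes higher. The share was 59.3% among genes above the median level, a value partly set by that filter. Of 14 mitosis markers 13 rose (Ccna2 by 2.80, Bub1 by 2.78, Kif11 by 2.35, Birc5 by 2.01), with a median of 1.51 over the list. Of 21 further replication genes 15 rose and 0 fell, led by the topoisomerase Top2a (2.94), Wdhd1 (2.85), the kinase activator Dbf4 (2.82) and Topbp1 (1.95). The further nucleotide genes had 5 higher and 1 lower of 9 (Samhd1 2.17, Nme1 2.09, Dut 1.59, Dtymk 1.44), and the checkpoint genes 5 higher and 1 lower of 10 (Chek1 2.18, Tipin 1.73, Atr 1.73, Rad17 1.38). Chromatin assembly genes rose in 5 of 7 (Nasp 2.05, Asf1a 1.55, Dnmt1 1.19, Chaf1b 0.75) and alternative clamp loader genes in 3 of 6, with Chtf8 (1.42), Dscc1 (1.30) and Atad5 (1.27) higher and Mcm8 lower (-0.43). In the E2F and RB list 8 of 13 rose and 2 fell, with Rbl1 (1.94), E2f5 (1.24), Rbl2 (1.22) and E2f3 (1.19) the largest. The shares higher in the checkpoint, clamp loader and further nucleotide lists were not above that of the genes above the median level.

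Differences among the tumors of the 4 lines were tested next. In a moderated F test over the lines 1 of the 41 genes passed, Mcm4 (adjusted p = 0.034), against 5.07% of all genes. At an unadjusted p under 0.05 there were 14 of the 41, against 20.7% of all genes. Mcm4 lay at 8.41, 8.37 and 8.42 in the line 1 tumors, at 7.25, 6.98 and 8.07 in line 31, at 7.67, 7.26 and 7.35 in line 59 and at 7.43, 7.22 and 7.28 in line 123. Every line 1 tumor was above all others, the nearest being the third line 31 tumor. Against the other 3 lines together, the line 1 tumors had a change of 1.01 ± 0.19 (adjusted p = 0.0093, means 8.40 and 7.39), and no other replication gene was called, against 2.33% of all genes higher. The Mcm4 call of the F test was lost when arrays were centred on their medians and without any one of 9 tumors: each of lines 1 and 123, the first of line 31 and the second and the third of line 59. Leaving out the third line 31 tumor gave 4 calls in that test (Gins3, Mcm4, Mcm6, Rpa3), and leaving out the second gave 2 (Gins3, Mcm4). For line 1 against the rest, 0 genes were called without the third line 1 tumor, 3 without the first (Cdc45, Mcm2, Mcm4), 2 without the second line 31 tumor (Gins3, Mcm4) and 5 without the third line 31 tumor (Cdc45, Gins3, Mcm4, Mcm6, Rpa3).

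The next smallest adjusted p in the F test were 0.077 for Mcm6, 0.088 for Cdc6, 0.094 for Orc1 and 0.1 for Mcm2. In the order of lines 1, 31, 59 and 123, mean levels with SD (n = 3 each) were 8.85 ± 0.02, 7.98 ± 0.43, 8.64 ± 0.26 and 8.36 ± 0.20 for Mcm6. They were 7.31 ± 0.43, 6.42 ± 0.16, 7.14 ± 0.33 and 6.84 ± 0.24 for Mcm2, and line 31 was lowest for both. For Orc1 they were 5.89 ± 0.11, 5.43 ± 0.23, 6.04 ± 0.20 and 5.83 ± 0.05. Cdc6 followed with 6.33 ± 0.24, 5.65 ± 0.22, 6.20 ± 0.03 and 6.03 ± 0.23, and line 31 was again lowest for these 2 genes. Among the rest, Pcna had 12.03 ± 0.17, 11.22 ± 0.49, 11.49 ± 0.60 and 11.59 ± 0.47. Lines next to each other by mean level overlapped within their SD for Pcna, but lines 1 and 31 did not. Rrm2 had 7.96 ± 0.25, 6.98 ± 0.78, 7.26 ± 0.63 and 7.49 ± 0.58, and lines next to each other by mean level overlapped as well.

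Against the other 3 lines, the line 31 tumors had 0 of 41 genes called by limma, against 0.762% of all genes lower. Their fitted changes were above 0 for 6 of the 41, against 52.9% of all genes, with a median of -0.28, against 0.01 for all genes, and 13 of the 41 had an unadjusted p under 0.05, against 14.2%. All 6 helicase core genes were below 0 (median -0.56), as were the 6 polymerase and primase genes (median -0.48), while 4 of 6 ORC genes were above 0. All 3 line 31 tumors were below all 9 others for Cdc6 (-0.54, adjusted p = 0.077), Orc1 (-0.49, adjusted p = 0.073) and Rpa1 (-0.54, adjusted p = 0.096), against 1.12% of all genes. Without the third line 31 tumor 5 genes were called lower (Mcm4, Mcm6, Orc6, Pole, Rpa3), and without the first line 1 tumor 2 were (Cdc6, Mcm2).

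Averaged over the 41 genes, tumors lay at 7.41 ± 0.09 in line 1, 7.32 ± 0.19 in line 59, 7.15 ± 0.14 in line 123 and 7.01 ± 0.24 in line 31 (SD, n = 3), with single line 31 tumors at 6.88, 6.88 and 7.29. Neighbours in this order did not differ beyond their spread. Line 31 had the lowest mean of the 4 lines in 23 of 41 genes, against 22.9% of all genes. Line 1 had the highest in 22, against 32.3%. The mitosis markers kept that order, at 7.90 in line 1, 7.83 in line 59, 7.52 in line 123 and 7.22 in line 31, and the macrophage genes were highest in line 31, at 9.12, against 8.35 in line 1, 8.72 in line 59 and 8.52 in line 123. The part of macrophage content in the lower replication levels of line 31 was not tested. The tumors of line 59 held 0 called genes by limma, against 1.17% of all genes, with 31 of 41 changes above 0, against 45%. Those of line 123 held 0 as well, against 0.848%, with 13 of 41 changes above 0, against 43.5%.

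**Figure D4:**
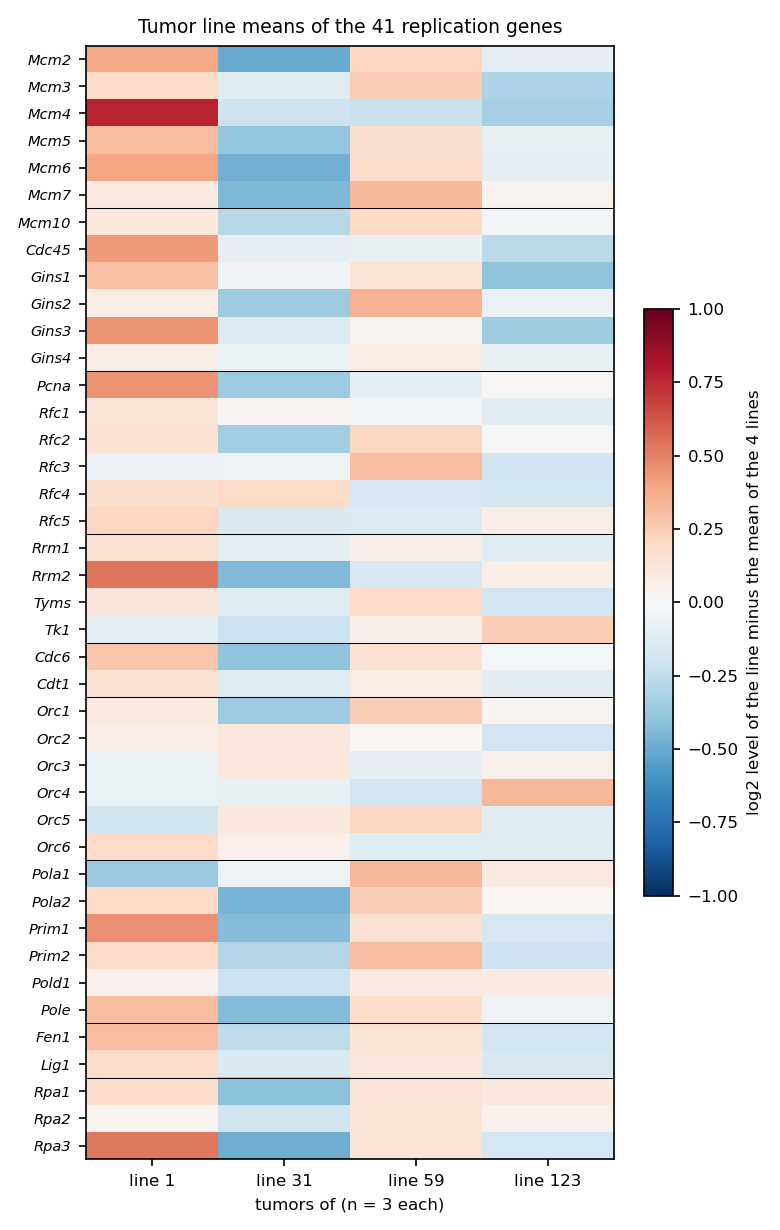
Mean log2 level of the tumors of each line (columns, n = 3 each) minus the mean of the 4 line means, for the 41 genes in order of role (vertical axis). The line 31 column is below 0 for all 6 MCM2-7 genes, and the line 1 column is highest for Mcm4.

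Lines 31, 59 and 123 were measured both as tumors and in culture, 1 culture per line, so this comparison is a description with no test. The cell and tissue arrays were first put on a common scale by quantile normalization. All 9 tumors were below their own culture in 32 of the 41 genes and above it in 0, against 23.9% of all genes lower in all 9. All 41 genes were in the upper part of the culture levels, and among all genes above the median culture level the share was 27.7%. The median difference over the 41 was -1.01 in line 31, -0.81 in line 59 and -0.65 in line 123, against -0.06, -0.09 and -0.08 for all genes. In the values as deposited 41 of 41 were lower in all 9 tumors, as were 92.8% of all genes. With the mean of a gene's probe sets it was 31 of 41, against 23.8%.

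By role, all 9 tumors were lower in 6 of 6 helicase core genes, 6 of 6 polymerase and primase genes, 4 of 4 nucleotide supply genes, both licensing genes, both maturation genes, 4 of 6 activation genes, 4 of 6 clamp and loader genes, 2 of 3 RPA genes and 2 of 6 ORC genes. Prim1 had the largest mean difference, -1.71. Its tumors lay at 8.43, 8.09 and 8.67 against 10.20 in culture for line 31, at 9.13, 8.68 and 9.03 against 10.62 for line 59 and at 9.14, 8.45 and 8.36 against 10.31 for line 123. The helicase core genes Mcm5 (-1.56), Mcm7 (-1.52) and Mcm3 (-1.45) followed, then Pole (-1.42), Gins2 (-1.38) and Mcm2 (-1.38). Gins4 differed by -0.21 and Gins3 by -0.35, and Orc3, an ORC subunit, by 0.05. The mitosis markers were lower in all 9 tumors in 13 of 14 genes, and the macrophage genes higher in 9 of 9, by a median of 3.87 in line 31 and 3.34 in line 123. The median for line 59 and the share of all genes higher in all 9 tumors are not given here. The part of macrophages in the lower replication levels was not tested.

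**Figure D5:**
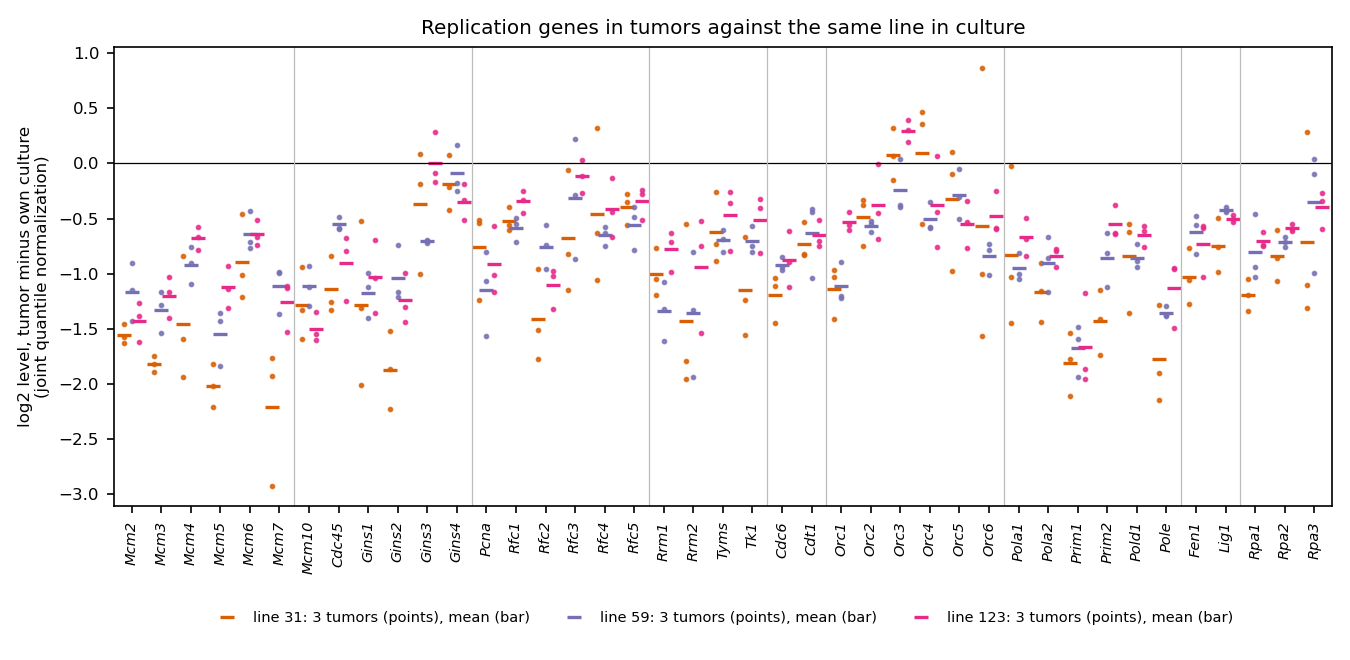
Tumor minus own culture (log2 units after joint quantile normalization) of the replication genes for lines 31, 59 and 123. Points are the 3 tumors of a line and bars their mean; most lie below 0, and Orc3 and Gins4 lie near it.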

How the data were processed

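RNA from 27 mouse samples was measured on Affymetrix arrays, with 100 ng of total RNA per labelling per the labels. The deposited values are log2 levels per probe set, which the authors made with RMA; besides RMA, the submitters' processing notes list the programs Affymetrix Expression Console and GCOS. Their versions and the genome build of the probe annotation were not given in the sources used here. No dates or scan batches were given, and the number of arrays limits the precision.

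Of 34760 probe sets, 21640 listed with 1 gene were used; 1321 with several genes and 11799 with none were left out. For 954 genes with several probe sets, 3 of them replication genes, the one with the highest mean over 27 arrays was taken. No equal value was found between arrays in 180 pairs of a cell and a tissue array, and 28 to 626 were found in pairs of 1 kind, so the 2 kinds look normalized apart, and cells and tissue were compared only as a description after joint quantile normalization.

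Groups came from the labels. Each of 8 comparisons was fitted with limma 3.58.1 in R 4.3.3 (lmFit, eBayes, 2-sided) over all 19937 genes with Benjamini-Hochberg adjustment, called at an adjusted p under 0.05. The scripts were tested on simulated data. Tables and plots were made with Python 3.11.15, pandas 2.3.3, numpy 2.4.6 and matplotlib 3.10.9. Alternatives were the mean of probe sets, a level filter, median centring, quantile normalization, eBayes with trend and robust, a 2-fold requirement, blocks, 1 fit of all arrays and leaving out each array.

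The genes and lists were chosen with earlier results of these data known. Per-sample values are given for genes called between cell groups, the 6 largest called changes in tumors, genes called between tumor lines, and always Pcna, Mcm2, Mcm6, Cdc6, Cdt1, Orc1, Rrm2, Tyms and Tk1; of other lists, up to 4 called genes with the largest change. Mcm3, Pole and others that did not pass a test were named after their values were seen. Samples with the same replicate number did not deviate together (r of 0.036 to 0.09 over 2 line and NSC pairs, and -0.282 to 0.335 over 30 tumor and SubQ pairs), so the numbers were not taken as pairing.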

Additional observations from a re-analysis of the deposited data

Results flagged for a closer look

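In the groups of 4 to 10 samples, 13 of the 123 groups tested held a sample far from the rest by Dixon's ratio. That ratio is the gap to the nearest sample over the whole range. Chance flags about 1 in 20 independent groups. These groups are not independent, as the genes share arrays and the 10 lines contain the mutant and WT groups. The 13 flags therefore cannot be set against that rate. Among the 6 p53 mutant lines, line 116 was far below the others for Pole (ratio 0.82), Gins1 (0.799), Rfc3 (0.731) and Cdc6 (0.634), and far above them for Rpa1 (0.659). Among the 4 WT lines, line 123 was far above for Orc4 (0.942), Mcm10 (0.923) and Rrm1 (0.883), line 119 was far above for Tyms (0.865), and line 120 was far below for Mcm3 (0.871). Over all 10 lines, line 123 was far above for Orc4 (0.5), line 331 far above for Rpa3 (0.511) and line 116 far below for Pola1 (0.569). Line 116 also had the lowest mean over the 41 genes.

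Between the tumors of the 4 lines, Mcm4 differed by the moderated F test (adjusted p = 0.034), with line 1 highest.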

How the results depend on the processing

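In lines against NSCs, where 4 genes were higher and 1 lower, 2 were higher after quantile normalization, 2 with all 27 arrays in 1 fit, and 1 higher and 2 lower with the p53 WT lines alone. A 2-fold requirement left 0 in each direction, and leaving out 1 array gave 0 to 5 higher and 0 to 1 lower. None of the 41 genes was called in mutant against WT lines under any alternative run. In tumors against SubQ, where 33 were higher and 1 lower, a 2-fold requirement left 21 higher and 0 lower, and quantile normalization 25 higher and 2 lower (Pold1, Rfc5). The 1 lower call became 0 with the level filter, median centring, the replicate block and the line as a random block, and 0 to 1 without 1 array. All genes shifted by a median of -0.28 as deposited, -0.14 after centring and -0.11 after quantile normalization. Between tumor lines the 1 call became 0 after centring and 2 after quantile normalization, with 0 to 4 without 1 array. Line 1 against the rest had 2 calls with the level filter and 2 after quantile normalization (0 to 5 without 1 array), and line 31 had 0 to 5 lower without 1 array. Tumors were all below their culture in 41 genes as deposited and 31 with the mean of probe sets, against 32. The causes were not tested.

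Directions turned for these genes, 5 of them called higher in the tumors as deposited (Tyms, Gins2, Gins3, Orc3, Rfc5). Under quantile normalization the change in tumors became -0.039 for Tyms, -0.086 for Cdc6, -0.155 for Gins2, -0.077 for Gins3, -0.177 for Orc3, -0.294 for Tk1 and -0.649 for Rfc5, the last called lower (adjusted p = 0.033), and Pcna in mutant against WT lines became -0.011. The other probe set, an alternative chosen after seeing the data, gave -0.053 for Tk1 in lines against NSCs. Leaving out 1 array, Pcna and Tk1 in mutant against WT lines and Cdc6 and Cdt1 in tumors against SubQ took both signs: -0.029 to 0.071 for Pcna, -0.126 to 0.098 for Tk1, -0.327 to 0.583 for Cdc6 and -0.089 to 0.134 for Cdt1.

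With the replicate block, lines against NSCs had 5 genes higher (Orc1 and Pole added, Rpa1 not) and 1 lower, tumors against SubQ had 32 higher and 0 lower, and between tumor lines 1 was called. The numbers are shared labels only, as their deviations did not correlate. No paired analysis was possible for mutant against WT lines because they share no replicate numbers.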
